A study of Homo sapiens with 6 samples.

Results

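The antagonists of bone morphogenetic protein (BMP) signalling were followed in human induced pluripotent stem cell (hiPSC) aggregates by RNA-seq. They were 9 genes, NOG, CHRD, CHRDL1, GREM1, NBL1, TWSG1, BMPER and SOSTDC1, whose products are secreted, and BAMBI, whose product sits in the membrane. They were chosen by symbol, as the rows of the count data whose Ensembl identifier carries one of these symbols in GENCODE release 44. All 9 were found among the 19977 genes counted, and all 9 were among the 16505 genes that reached 10 counts when the 6 libraries were added up and so were tested.

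The cells were NCRM-1, a wild type hiPSC line that was reprogrammed with episomal vectors from CD34+ cord blood cells. In both groups, single cells were seeded with a ROCK inhibitor into vertical wheel bioreactors and grown as aggregates for 4 days, with 50% of the medium replaced on day 2. The 3 E8 control libraries came from E8, a defined medium for pluripotent cells, and the 3 PEG and HS libraries from E8 with 10 mg/ml polyethylene glycol (PEG) and 0.1 µg/ml heparin sodium salt (HS). The question behind the comparison was what the supplemented medium changes in the cells, and here it is asked of the BMP antagonists. The labels speak of a single control and a single treated bioreactor, so medium and vessel cannot be told apart, and the p-values below measure the spread between libraries that may share a vessel. The treatment text of the labels describes PEG and heparin for all 6 libraries, against the treatment named for the 3 controls. The named treatment was followed.

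BMPs are secreted dimers that bring type I and type II receptor kinases together, after which SMAD1, SMAD5 and SMAD9 are phosphorylated and move to the nucleus with SMAD4. Secreted antagonists bind the ligands and keep them from the receptors, while BAMBI resembles a type I receptor without a kinase domain and acts as a decoy in the membrane. In pluripotent cells BMP signalling favours trophectoderm-like, amnion-like and mesodermal fates and its inhibition favours neuroectoderm, and several antagonists, noggin and gremlin among them, are known to bind heparan sulphate.

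Of the 9 antagonists, BAMBI rose in PEG and HS and GREM1 and TWSG1 fell, and the other 6 were not called. The media were compared with the edgeR quasi-likelihood test, and a gene was called where its p, adjusted by Benjamini-Hochberg over all genes tested, was under 0.05. The same rule called 25.3% of all genes tested, 12.2% higher and 13.1% lower, so 3 of 9 is close to the background and the count alone is no result about the antagonists. The CPM values of the media (counts scaled to a common library size, with TMM factors) did not overlap for the same 3 genes, against 39.3% of all genes tested. The median log2 fold change of the 9, as PEG and HS over E8 control, was -0.024, and that of all genes tested was 0.0031. In these bulk samples, fewer cells that express a gene and less RNA of it per cell cannot be told apart.

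The PEG and HS libraries totalled 28148630 to 33849198 counts and the controls 26991279 to 36185138, so that 3 counts correspond to 0.0829 to 0.111 CPM and every antagonist was counted in every library. The cell type on the labels was checked with markers. The 9 markers of pluripotent cells summed to 7933 to 8194 CPM with PEG and HS and 7804 to 7967 CPM without, with 4 higher and 3 lower. Markers of other types moved with the medium: 7 of 7 neuroectoderm markers fell (summed 560 to 598 against 752 to 778 CPM), as did 3 of 6 for trophectoderm and amnion (4.71 to 4.91 against 13.5 to 14.0 CPM) and 4 of 6 for fibroblasts (171 to 180 against 234 to 260 CPM). Most of the neuroectoderm sum was NES, with means of 543 against 643 CPM. Of the fibroblast markers, COL1A1 was apart between the media, with means of 60.1 against 120 CPM. E8 control replicate 3 lay below the other controls for COL3A1 (9.87 against 17.6 and 17.2 CPM) and DCN (1.88 against 4.30 and 4.25 CPM). DCN was called lower though its media overlapped. Neural crest markers summed to 53.5 to 58.0 against 45.2 to 47.7 CPM, with 1 higher and 1 lower. Most of that sum was FOXD3, which rose, with means of 51.9 against 41.6 CPM. SOX10 fell (2.56 against 3.54 CPM), and TFAP2B, PAX3 and SNAI2 had lower means with PEG and HS and were not called. Mesoderm and primitive streak markers summed to 5.87 to 6.05 against 6.19 to 7.79 CPM with 1 lower. Endoderm markers summed to 2.90 to 2.94 against 3.52 to 4.26 CPM with none called. No marker was at 0 in all 6 libraries, though SOX17 and CDX2 had 2 and 3 counts in total. The part of these cell types in the changes of GREM1, TWSG1 and BAMBI was not tested.

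GREM1 encodes gremlin, a secreted protein of the DAN family that binds BMP2, BMP4 and BMP7. It lies on the plus strand of chromosome 15 (ENSG00000166923, chr15:32718004-32745106, GRCh38). Its level was 2.05, 2.87 and 2.45 CPM in the PEG and HS libraries and 4.26, 4.96 and 3.96 CPM in the E8 control libraries, from 69, 81 and 83 counts and 115, 161 and 143 counts. All 3 PEG and HS libraries were below all 3 controls. The means were 2.46 ± 0.410 and 4.39 ± 0.509 CPM (SD, n = 3 in each medium), and the log2 fold change was -0.85 with an SE of 0.15 (edgeR quasi-likelihood test, adjusted p = 0.000583). GREM1 was thus 1.80-fold lower in PEG and HS, and the 95% interval of the ratio of PEG and HS to E8 control ran from 0.447 to 0.693. Of all genes called, 10.8% had a larger absolute log2 fold change. An antisense gene, GREM1-AS1, overlaps 367 bases of the GREM1 exons and was not among the genes counted.

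TWSG1 encodes twisted gastrulation, a secreted protein that forms complexes with chordin and BMPs and can either strengthen the block or help to release the ligand. It lies on the plus strand of chromosome 18 (ENSG00000128791, chr18:9334767-9402420). The PEG and HS libraries held 27.5, 27.5 and 27.7 CPM and the E8 control libraries 36.4, 36.6 and 39.6 CPM. The media were far apart next to the spread within them, and the coefficient of variation over the PEG and HS libraries, 0.469%, was below the 3.37% that counting error alone gives on average at this depth. The means were 27.6 ± 0.129 and 37.5 ± 1.82 CPM (SD, n = 3 in each medium), a log2 fold change of -0.45 with an SE of 0.047 (edgeR quasi-likelihood test, adjusted p = 3.92e-06). TWSG1 was 1.36-fold lower in PEG and HS, with a 95% interval of the ratio from 0.684 to 0.786.

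BAMBI, the membrane decoy, lies on the plus strand of chromosome 10 (ENSG00000095739, chr10:28677510-28682932), and no 31-base stretch of its transcripts occurs in a transcript of another gene. In PEG and HS its level was 17.8, 17.2 and 18.5 CPM, and the controls held 14.4, 13.9 and 15.3 CPM. The lowest PEG and HS library was above the highest control. The means were 17.8 ± 0.618 and 14.6 ± 0.702 CPM (SD, n = 3 in each medium), a log2 fold change of 0.29 with an SE of 0.061 (edgeR quasi-likelihood test, adjusted p = 0.00226). BAMBI was 1.22-fold higher in PEG and HS, with a 95% interval of the ratio from 1.12 to 1.34. The absolute log2 fold changes of all 3 genes were above the median of the genes called, 0.25. Of the genes called, 10.8%, 25.3% and 42.7% changed more than GREM1, TWSG1 and BAMBI. When a change of more than 1.5-fold was asked for, none of the 3 was called.

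**Figure D1:**
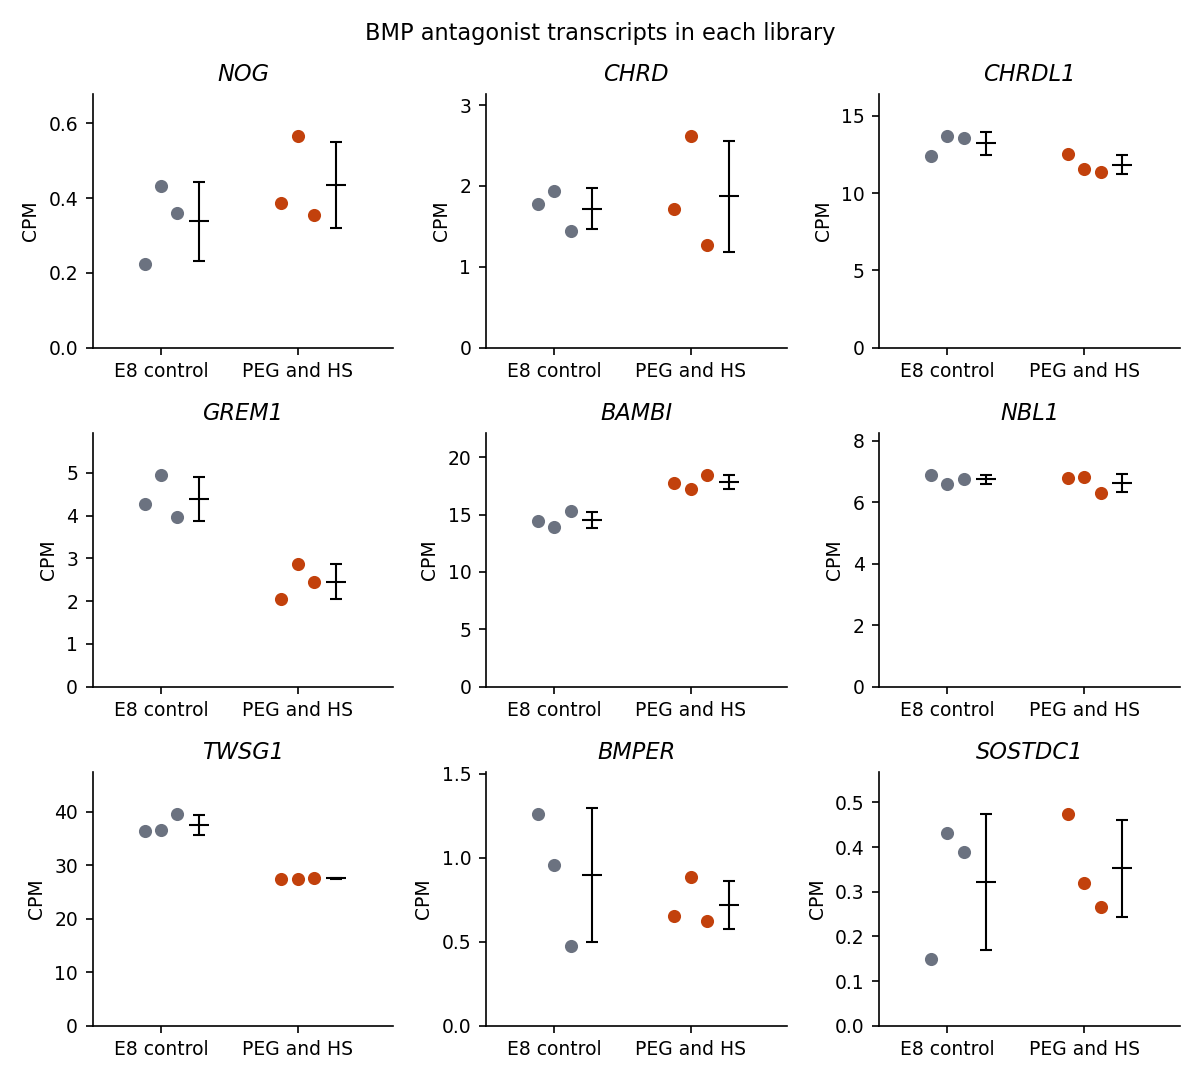
CPM of the 9 BMP antagonists (y axis, from 0, a scale of its own for each gene) in the 3 E8 control and 3 PEG and HS libraries; points are libraries, and the bar gives the mean with its SD. The media are apart for GREM1, TWSG1 and BAMBI and overlap for the other 6 genes.

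CHRDL1 encodes chordin-like 1, a secreted antagonist with the cysteine-rich repeats of chordin (ENSG00000101938, minus strand, chrX:110673856-110795819). The PEG and HS libraries measured 12.5, 11.6 and 11.4 CPM, and the controls 12.4, 13.7 and 13.6 CPM. The highest PEG and HS library lay just above the lowest control, so the media overlapped by 1 library on each side. The log2 fold change was -0.16 with an SE of 0.069 and did not pass the test (edgeR quasi-likelihood test, adjusted p = 0.100). The 95% interval of the ratio, not adjusted for the number of genes, ran from 0.807 to 0.989.

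NBL1 encodes DAN, the founding member of the DAN family (ENSG00000158747, plus strand, chr1:19596979-19658456). Its 3 PEG and HS libraries held 6.79, 6.83 and 6.29 CPM and its controls 6.89, 6.59 and 6.76 CPM. The difference was within the spread of the libraries, with a ratio between 0.870 and 1.11 at 95% confidence (edgeR quasi-likelihood test, adjusted p = 0.875), which leaves out a 1.5-fold change in either direction. Of the 31-base stretches in its transcripts, 17.2% also occur in other genes, most of them in the readthrough gene MICOS10-NBL1. That gene held 5 counts in PEG and HS replicate 1 and none in the other libraries.

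The other 4 antagonists had wide intervals. NOG, which encodes noggin (ENSG00000183691, plus strand, chr17:56593699-56595611), held 13, 16 and 12 counts with PEG and HS, or 0.355 to 0.566 CPM, and 6, 14 and 13 counts without, or 0.222 to 0.431 CPM. Its ratio lay between 0.685 and 2.31 at 95% confidence, an interval that takes in a 1.5-fold difference in 1 direction (edgeR quasi-likelihood test, adjusted p = 0.612). CHRD, which encodes chordin (ENSG00000090539, plus strand, chr3:184380054-184390736), held 58, 74 and 43 counts in the PEG and HS libraries and 48, 63 and 52 counts in the controls. CHRD differed among the PEG and HS libraries more than counting error gives on average, with a coefficient of variation of 36.7% against 13.1%, and its ratio was between 0.753 and 1.55 (adjusted p = 0.790). CHRD shares 361 exon bases with THPO on the opposite strand, and whether the counting used strand is not given in the sources used here. THPO held 10 to 30 counts a library in PEG and HS, against 22 to 38 in the controls (adjusted p = 0.266).

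BMPER, the human counterpart of crossveinless-2, can act for or against BMPs (ENSG00000164619, plus strand, chr7:33904308-34156427). Its counts were 22, 25 and 21 with PEG and HS and 34, 31 and 17 without, and the ratio was between 0.485 and 1.37 (edgeR quasi-likelihood test, adjusted p = 0.589). SOSTDC1, a secreted relative of sclerostin that also touches WNT signalling (ENSG00000171243, minus strand, chr7:16461481-16530580), held 16, 9 and 9 counts with PEG and HS and 4, 14 and 14 without. Its ratio was between 0.542 and 2.12 (adjusted p = 0.906). The control libraries held both the highest and the lowest BMPER value, so the media overlapped. The media overlapped for SOSTDC1 too. E8 control replicates 2 and 3, at 0.431 and 0.388 CPM, lay above PEG and HS replicates 2 and 3, at 0.318 and 0.266 CPM, while the lowest value was a control. The sign of the difference of CHRD, NBL1, BMPER and SOSTDC1 turned when single libraries were left out.

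**Figure D2:**
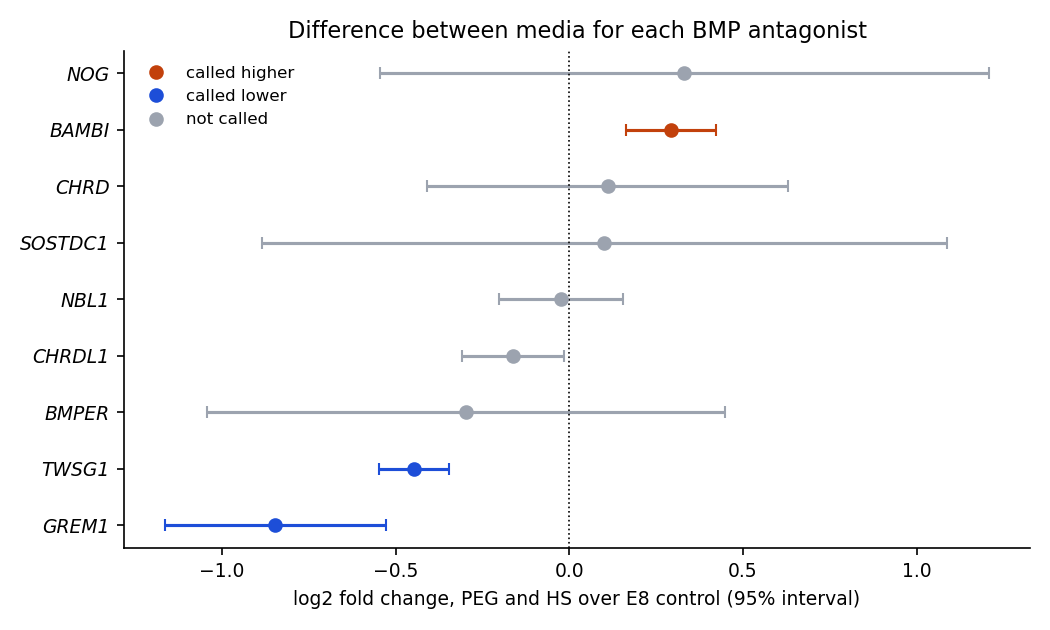
Log2 fold change of each BMP antagonist, PEG and HS over E8 control (x axis), with its unadjusted 95% interval from the edgeR fit; 3 libraries in each medium. The intervals are short for TWSG1, BAMBI, CHRDL1 and NBL1 and long for the rarely counted NOG, SOSTDC1 and BMPER.

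Levels of different genes were compared as CPM per kilobase of merged exon. The 9 antagonists formed an upper set of 4 genes and a lower set of 5. In E8 control, the order of the upper set on this scale was TWSG1 at 8.46 ± 0.410, BAMBI at 6.81 ± 0.328, CHRDL1 at 3.37 ± 0.186 and NBL1 at 1.96 ± 0.0447 (mean ± SD, n = 3). The lower set ran from GREM1 at 0.297 ± 0.0344 through CHRD, NOG and SOSTDC1 to BMPER at 0.112 ± 0.0498. Each gene of the upper set was apart from the next in every library, while neighbours in the lower set overlapped. NBL1 and GREM1, on either side of the gap, stood at the 39.6 and 19.2 percentiles of all genes tested on this scale.

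In PEG and HS the first 2 places were exchanged, and BAMBI led at 8.34 ± 0.289 and TWSG1 followed at 6.22 ± 0.0291 CPM per kilobase (SD, n = 3), with no overlap between the genes in either medium. Of the summed level of the 9 antagonists on this scale, TWSG1 made up 30.1%, 30.5% and 30.7% in PEG and HS against 39.1%, 38.7% and 39.9% in E8 control. BAMBI made up 40.5%, 39.7% and 42.5% against 32.1%, 30.6% and 32.0%. The share of TWSG1 was thus lower, and that of BAMBI higher, in each PEG and HS library than in each control. The exchange of TWSG1 and BAMBI held with the longest transcript as length, while the order of CHRDL1 and NBL1 in PEG and HS and the order within the lower set depended on the length used.

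**Figure D3:**
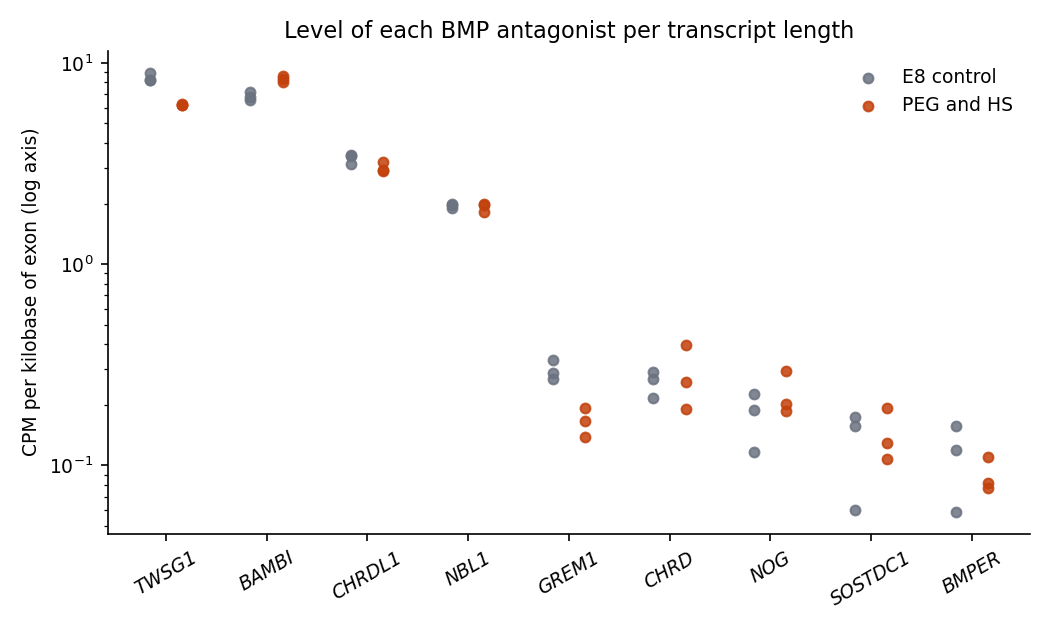
CPM per kilobase of merged exon (log axis) of the 9 BMP antagonists, ordered by their level in E8 control; points are libraries, 3 for each medium. TWSG1 is above BAMBI in E8 control and below it in PEG and HS, and the 5 genes on the right lie well below the 4 on the left.

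The summed level of the 9 antagonists was 20.4 ± 0.134 CPM per kilobase with PEG and HS and 21.6 ± 0.744 without (SD, n = 3). Without BAMBI, the 8 secreted antagonists summed to 12.1 ± 0.314 and 14.8 ± 0.498. The 14 genes of BMP ligands summed on the same scale to 6.15 ± 0.325 with PEG and HS and 13.2 ± 0.701 without. The ratio of the summed 9 antagonists to the summed ligand transcripts was 3.53, 3.30 and 3.14 in the PEG and HS libraries and 1.60, 1.54 and 1.80 in the E8 control libraries. With the 8 secreted antagonists alone it was 2.10, 1.99 and 1.81 against 1.09, 1.07 and 1.22. The 13 other antagonists described below are not in these ratios. The ligand sum differed more between the media than the antagonist sum, and no test was made of these sums.

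The regions at the start of the 3 antagonists that were called are shown so that their base composition and short motifs can be read. RefSeq (GRCh38.p14) gave windows of 300 bases, 250 before and 50 after a transcription start, for 7 of the 9 genes, while NOG and SOSTDC1 were not matched. Capitals mark GGCGCC and CAGAC, letters that SMAD proteins are known to bind, read on both strands. The windows lie on the plus strand at chr10:28677271-28677570 for BAMBI, chr15:32717754-32718053 for GREM1, the first of its windows, and chr18:9334523-9334822 for TWSG1.
BAMBI: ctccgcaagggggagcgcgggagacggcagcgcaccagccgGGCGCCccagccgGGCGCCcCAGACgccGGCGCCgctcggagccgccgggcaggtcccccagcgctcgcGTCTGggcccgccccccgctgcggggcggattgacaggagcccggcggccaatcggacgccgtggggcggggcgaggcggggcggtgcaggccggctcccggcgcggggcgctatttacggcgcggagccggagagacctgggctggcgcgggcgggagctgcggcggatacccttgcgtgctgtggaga
GREM1: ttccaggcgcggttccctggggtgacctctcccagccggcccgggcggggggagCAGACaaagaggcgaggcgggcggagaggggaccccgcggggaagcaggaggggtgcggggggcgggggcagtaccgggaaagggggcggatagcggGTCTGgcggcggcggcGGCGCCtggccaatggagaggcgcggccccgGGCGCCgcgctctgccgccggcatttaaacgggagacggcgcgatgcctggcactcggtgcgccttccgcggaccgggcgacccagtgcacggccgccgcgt
TWSG1: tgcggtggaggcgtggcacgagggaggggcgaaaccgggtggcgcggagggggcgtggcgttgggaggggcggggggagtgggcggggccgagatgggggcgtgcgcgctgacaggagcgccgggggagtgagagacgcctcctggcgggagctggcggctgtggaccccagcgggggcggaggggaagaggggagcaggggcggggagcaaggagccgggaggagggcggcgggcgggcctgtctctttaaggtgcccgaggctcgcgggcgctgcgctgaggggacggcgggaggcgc
All 3 windows were rich in G and C, with 80%, 77% and 77.7%, against a median of 58.7% over 35116 windows of all genes. This was not particular to the genes called, as CHRD had 81.3% and CHRDL1 73.7%. The windows of NBL1 ran from 53.3% to 84.3%. BAMBI held 3 copies of GGCGCC and 2 of CAGAC, GREM1 2 of each, and TWSG1 none of either. Over all windows, 19.2% held GGCGCC and 45.3% held CAGAC. The GC box GGGCGG, which can overlap GGCGCC, occurred 5, 4 and 6 times on both strands together and was found in 45.0% of all windows. TATAAA was in none of the 3 and in 11.5% of all windows. Both SMAD motifs stood in the window of BAMBI, which rose, and in that of GREM1, which fell. They were not particular to the genes called. GGCGCC also stood in windows of CHRD, NBL1 and BMPER, and CAGAC in windows of CHRDL1 and NBL1. The second window of GREM1 held CAGAC but no GGCGCC. The shares over all windows were not matched for G and C content, and a link of the motifs to the changes was not tested.

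Among 13 other antagonists of BMP or activin signalling, a list of related genes, 11 were tested, 3 fell and none rose, with a median log2 fold change of -0.23. Over all genes tested, 25.3% were called, 12.2% higher and 13.1% lower, which is the background of this count and of those of the other lists. The count of 3 in 11 is close to it and is no result about the list. FST, which encodes the activin and BMP binder follistatin, fell from 42.3 ± 1.63 to 16.3 ± 0.954 CPM (SD, n = 3), a log2 fold change of -1.38 with an SE of 0.054 (edgeR quasi-likelihood test, adjusted p = 4.81e-11). FSTL1, a follistatin-like secreted protein, went from 504 ± 12.4 to 411 ± 3.30 CPM (log2 fold change -0.29, adjusted p = 6.37e-07). The third was FSTL3, at an adjusted p of 0.0489, and it was called under 3 of 14 alternative settings. The summed level of this list was 57.5 ± 0.825 CPM per kilobase with PEG and HS and 77.8 ± 1.97 without, so it exceeded that of the 9 antagonists in both media. In CPM the list summed to 467 to 474 with PEG and HS and 578 to 604 without, and most of this was FSTL1.

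Of the 14 BMP ligand genes, 11 were tested, 5 fell (BMP2, BMP4, BMP6, BMP7 and GDF6) and none rose, with a median log2 fold change of -0.37. BMP2 fell from 17.0 ± 0.435 to 3.59 ± 0.135 CPM (SD, n = 3), a log2 fold change of -2.24 with an SE of 0.075 (edgeR quasi-likelihood test, adjusted p = 8.13e-12). BMP4 fell from 7.97 ± 0.943 to 1.57 ± 0.0742 CPM, a log2 fold change of -2.34 with an SE of 0.13 (adjusted p = 2.46e-09). BMP6 and GDF6 were called under 5 and 10 of 14 alternatives. BMP10 and GDF2 had no count in any library.

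The 7 receptor genes gave 1 call, BMPR2, a type II receptor, with 40.1 ± 0.915 CPM against 36.7 ± 0.235 CPM in the controls (SD, n = 3; log2 fold change 0.13, adjusted p = 0.0291). BMPR2 was called under 7 of 14 alternatives. BMPR1A, a type I receptor like the one BAMBI resembles, measured 117 and 116 CPM (adjusted p = 0.855). Among 6 co-receptor genes 1 rose, HJV, with 32 counts in all and called under 4 of 13 alternatives, and 4 fell (RGMA, RGMB, NEO1 and TGFBR3). RGMA, a membrane-bound BMP co-receptor, fell from 76.0 ± 2.37 to 44.5 ± 2.41 CPM (log2 fold change -0.77, adjusted p = 2.49e-09), and TGFBR3, or betaglycan, from 9.42 ± 0.410 to 7.96 ± 0.128 CPM (log2 fold change -0.25, adjusted p = 0.0227), the latter called under 9 of 14 alternatives. RGMB lost its call without PEG and HS replicate 1 and in the test against 1.5-fold.

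Among 8 SMAD pathway genes, SMAD7, an inhibitory SMAD, rose from 24.7 ± 0.936 to 40.8 ± 1.06 CPM (SD, n = 3; log2 fold change 0.73, adjusted p = 1.37e-08). SMAD4 fell from 126 ± 0.290 to 103 ± 0.999 CPM (log2 fold change -0.30, adjusted p = 1.37e-06), and SMAD9 from 2.07 ± 0.126 to 1.29 ± 0.173 CPM (log2 fold change -0.67, adjusted p = 0.0150). SMAD9 was called under 11 of 14 alternatives and not without PEG and HS replicate 2, without E8 control replicate 3 or in the test against 1.5-fold. SMAD1 and SMAD5 were not called. Of 8 genes known to respond to BMP signalling, 4 were called lower (ID1, ID2, ID4 and MSX2) and none higher, with a median log2 fold change of -0.86. The media did not overlap for HEY1 and MSX1 either, though neither was called (edgeR quasi-likelihood test). HEY1 was higher with PEG and HS, at 2.40 against 1.77 CPM (adjusted p = 0.0732). MSX1 was lower, at 0.161 against 0.318 CPM (adjusted p = 0.203). MSX2 was called under 11 of 14 alternatives and not without PEG and HS replicate 1, without E8 control replicate 2 or in the test against 1.5-fold. ID1 went from 152 ± 10.2 to 66.3 ± 2.33 CPM (log2 fold change -1.20, adjusted p = 3.17e-11) and ID4 from 36.9 ± 2.22 to 8.47 ± 0.478 CPM (log2 fold change -2.13, adjusted p = 3.17e-12). ID3, of the same family, measured 89.6 CPM with PEG and HS and 89.7 CPM without (adjusted p = 0.996). BAMBI, also known as a gene that BMP signalling induces, rose while ID1, ID2, ID4 and MSX2 fell.

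The 7 protease genes belong to families with members that cut chordin or process BMP precursors. TLL2, a tolloid-like protease, rose from 5.63 ± 0.181 to 7.77 ± 0.998 CPM (SD, n = 3, log2 fold change 0.47, edgeR quasi-likelihood test, adjusted p = 0.00268), and the other 6 were not called. What the product of TLL2 cuts was not measured. BMP1, which cuts chordin and is no BMP despite its name, measured 6.38 CPM against 6.32 CPM in the controls (adjusted p = 0.935).

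**Figure D4:**
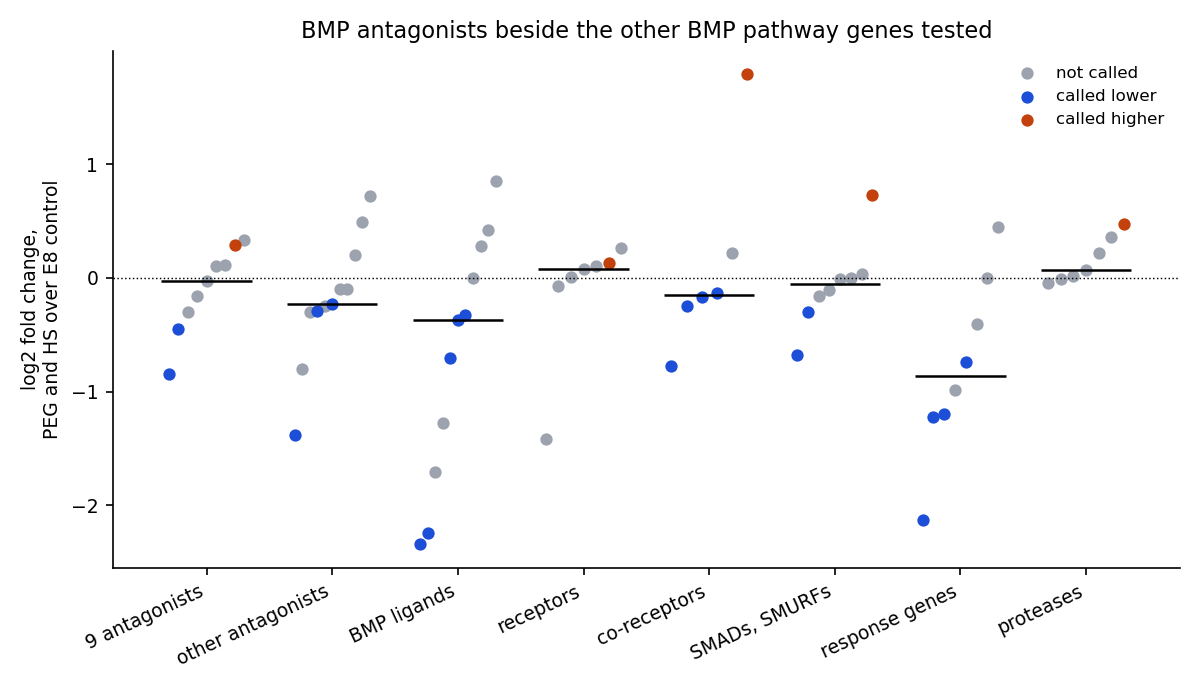
Log2 fold change, PEG and HS over E8 control (y axis), of the tested genes in the 9 antagonists and in 7 lists of other BMP pathway genes; each point is a gene, the line is the median of a list and colours give the call. The antagonists lie between -0.85 and 0.33, and the genes that fell most are BMP4, BMP2 and ID4.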

How the data were processed

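RNA-seq was measured in 6 libraries, 3 for each medium, made with a stranded mRNA kit. The authors deposited the raw counts of each library, gene by gene. The authors trimmed reads with Trim Galore 0.6.7 and mapped them to GRCh38 with STAR 2.6.1 in an nf-core pipeline. The counting tool, its strand setting and the annotation release are not given in the sources used here. Of 19977 identifiers, 19916 matched GENCODE 44. Here, 16505 genes, those that reached 10 counts over all libraries, were tested with edgeR 4.0.16 in R 4.3.3 (TMM, glmQLFit and glmQLFTest without covariates), and p-values were adjusted by Benjamini-Hochberg. Standard errors were taken from the fold change and its F statistic. The study's methods use DESeq2, which was run here (1.42.0) as an alternative, beside limma-voom 3.58.1, other scalings and filters, a replicate block, a test against 1.5-fold and leaving out each library. The 9 genes and the lists of other genes were chosen with earlier results of these data known. All 9 antagonists are named; from each other list, up to 2 genes in each direction with the largest called change, no overlap of the media and at least 1 CPM in the higher medium are named, and further names were chosen after their values were seen. With 3 libraries against 3, an exact permutation test cannot go below p = 0.1. The floor of 3 counts covers counting error only.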

Additional observations from a re-analysis of the deposited data

How the results depend on the processing

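GREM1, TWSG1 and BAMBI were called in 13 of 14 alternatives each, and the other 6 antagonists in none. The exception was the test against a 1.5-fold change, where the log2 fold changes of -0.85, -0.45 and 0.29 had adjusted p-values of 0.526, 1 and 1 (edgeR), 0 antagonists were called higher and 0 lower, and 264 of all genes were called in place of 4173. In this test 1 other antagonist, 2 ligands, 0 receptors, 1 co-receptor, 0 SMAD pathway genes and 0 proteases were called. Of the response genes, 3 kept their call: ID1, ID2 and ID4. DESeq2 called 3398 genes, 0 receptors and 3 co-receptors. Leaving out 1 library at a time gave 3114 to 3674 calls over all genes. Log2 fold changes then ranged from -0.96 to -0.73 for GREM1, -0.47 to -0.40 for TWSG1, 0.26 to 0.33 for BAMBI, -0.21 to -0.13 for CHRDL1 and 0.11 to 0.53 for NOG. The sign turned for 4 uncalled genes: CHRD (-0.20 to 0.33, below 0 without PEG and HS replicate 2 or E8 control replicate 3), NBL1 (-0.044 to 0.014, above 0 without PEG and HS replicate 3), BMPER (-0.62 to 0.013, above 0 without E8 control replicate 1) and SOSTDC1 (-0.21 to 0.34, below 0 without replicate 1 of either medium). Ligand calls ranged from 3 to 6, with 3 without PEG and HS replicate 1 or without E8 control replicate 1 or 2. Receptor calls ranged from 0 to 2, co-receptor calls from 2 to 4 with 2 without PEG and HS replicate 1, SMAD pathway calls from 2 to 4, other antagonist calls from 2 to 3 and response gene calls from 3 to 4. The cause of these changes was not tested.

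Taking the longest transcript as length in place of merged exons gave E8 control levels of 0.364 for CHRD, 7.73 for BAMBI, 3.12 for NBL1, 10.0 for TWSG1 and 0.169 CPM per kilobase for BMPER, and PEG and HS levels of 0.396, 9.46, 3.07, 7.35 and 0.136. TWSG1 and BAMBI exchanged places between the media on this scale too, but other orders turned. In PEG and HS, NBL1 at 3.07 came level with CHRDL1 at 3.06, and in E8 control CHRD lay above GREM1 at 0.301 and BMPER above SOSTDC1 at 0.134. The replicate numbers in the labels are shared by the media, but the correlation of deviations between libraries of the same number was 0.0127 to 0.0270, under 0.1, although 5 of 6 libraries correlated best with their own number. With the replicate block, 4444 genes were called, and the antagonists again gave 1 higher and 2 lower call. NOG, BMPER and SOSTDC1 had 4 to 34 counts a library, and in E8 control the coefficients of variation of BMPER and SOSTDC1, 44.4% and 47.2%, also exceeded the 19.1% and 30.6% that counting error gives on average.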
